A study of Danio rerio with 14 samples.

Results

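The genes described are the 10 that encode the enzymes leading from farnesyl diphosphate through squalene to cholesterol: fdft1, sqlea, lss, cyp51, msmo1, nsdhl, hsd17b7, ebp, sc5d and dhcr7. They were chosen by their place in the pathway, with earlier results of these data already known. All 10 had a probe set named with that symbol alone, out of 21125 genes measured. Where a gene had more than 1 probe set, the one with the highest mean over all arrays stood for it. In the RefSeq annotation of assembly GRCz12tu the 10 genes lie on 10 different chromosomes.

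Liver RNA of adult zebrafish was measured on 14 ZebGene 1.1 ST arrays, which cover 4 genotypes and 3 ways of feeding. WT fish were of the AB strain. HBx(p53-) fish carried the hepatitis B virus X antigen, Src(p53-) fish carried the tyrosine kinase Src, and HBx,Src(p53-) fish carried both. In each of these lines the transgene was driven by the fabp10a promoter, which is active in hepatocytes, and the fish were also p53 mutants, so a difference from WT holds the transgene and the p53 mutation together. Feeding began at 3 months of age and went on for 8 weeks. Per the study's methods, fish on every diet were given the same daily amount of a powdered feed. Besides this, the normal diet (NOR) held 0.5 mL of Artemia in 1 daily feed. Overfeeding (DIO) held 3 daily feeds of 2 mL, 12 times as much Artemia. The high fat diet (FAT) added 3 daily feeds of 0.22 g of high fat food to the normal Artemia. WT on NOR and HBx,Src(p53-) on NOR and on DIO had 2 arrays each, and the other 8 groups had 1. HBx,Src(p53-) on FAT is not analysed here. The study counts as many fish as arrays, so each array was read as RNA of 1 fish, and the spread between arrays of a group holds differences between fish and technical error together.

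Cholesterol is built from acetyl-CoA in the mevalonate steps, which end at farnesyl diphosphate, and then in the sterol steps described here. Squalene synthase commits farnesyl diphosphate to sterols, squalene epoxidase and lanosterol synthase close the ring system, and the later enzymes remove methyl groups and shift double bonds until cholesterol is left. In vertebrates the genes of both stages are activated by the transcription factor SREBP2, which is held in the endoplasmic reticulum by INSIG proteins while cholesterol there is plentiful and is released when it runs low. The liver is a main site of this synthesis, and dietary cholesterol is known to repress it.

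The deposited values were log2 levels, each unit a factor of 2, with array medians between 2.1 and 2.23. On every array the 9 measured hepatocyte markers had a mean log2 level between 11.36 and 12.33. The log2 level of src was 4.23 to 6.01 on arrays of the Src-carrying lines and 2.57 to 4.59 on the others, so the ranges overlapped. The 12 measured exocrine pancreas markers had means of 4.37 to 5.62 in WT, 6.60 to 8.70 in HBx(p53-), 4.70 to 6.33 in Src(p53-) and 6.32 to 7.71 in HBx,Src(p53-). The 9 measured leukocyte markers had means of 3.60 to 4.39 on WT arrays, 4.15 to 4.98 on those of the single transgenic lines and 4.72 to 5.33 on HBx,Src(p53-) arrays, and the 11 germ cell markers of 2.29 to 4.02 on HBx,Src(p53-) arrays and 1.83 to 2.51 on the others. In whole tissue, fewer hepatocytes and less RNA per hepatocyte cannot be told apart.

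On average the 10 enzymes were high on 5 arrays and low on the other 9. Not every member followed this. The log2 level of lss was 1.52 on the HBx(p53-) FAT array, and nsdhl was 5.37 on WT FAT against 5.53 on WT NOR array 2. The mean log2 level of the 10 was 9.06 and 8.39 on the HBx,Src(p53-) NOR arrays, 7.63 on the WT FAT array, 7.10 on the Src(p53-) NOR array and 6.10 on the HBx(p53-) FAT array. On the remaining 9 arrays it was between 4.45, on HBx,Src(p53-) DIO array 2, and 5.32, on WT NOR array 2. The SD of this mean between arrays of a group was 0.44, pooled over the 3 groups with 2 arrays. Neighbours among the 5 high arrays lay 0.53 to 1.00 apart, and the 2 HBx,Src(p53-) NOR arrays themselves 0.67, so the order of these 5 is not settled. The lowest of them lay 0.78 above the next array, and the 9 low arrays were at most 0.34 apart from neighbour to neighbour, less than the SD. The 5 highest arrays were the normal diet arrays of fish with Src and the high fat arrays of fish without it. The 2 WT NOR arrays lay at 4.53 and 5.32, about as far apart as the 0.78 gap. Whether the single HBx(p53-) FAT array belongs with the high arrays is therefore not settled.

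**Figure D1:**
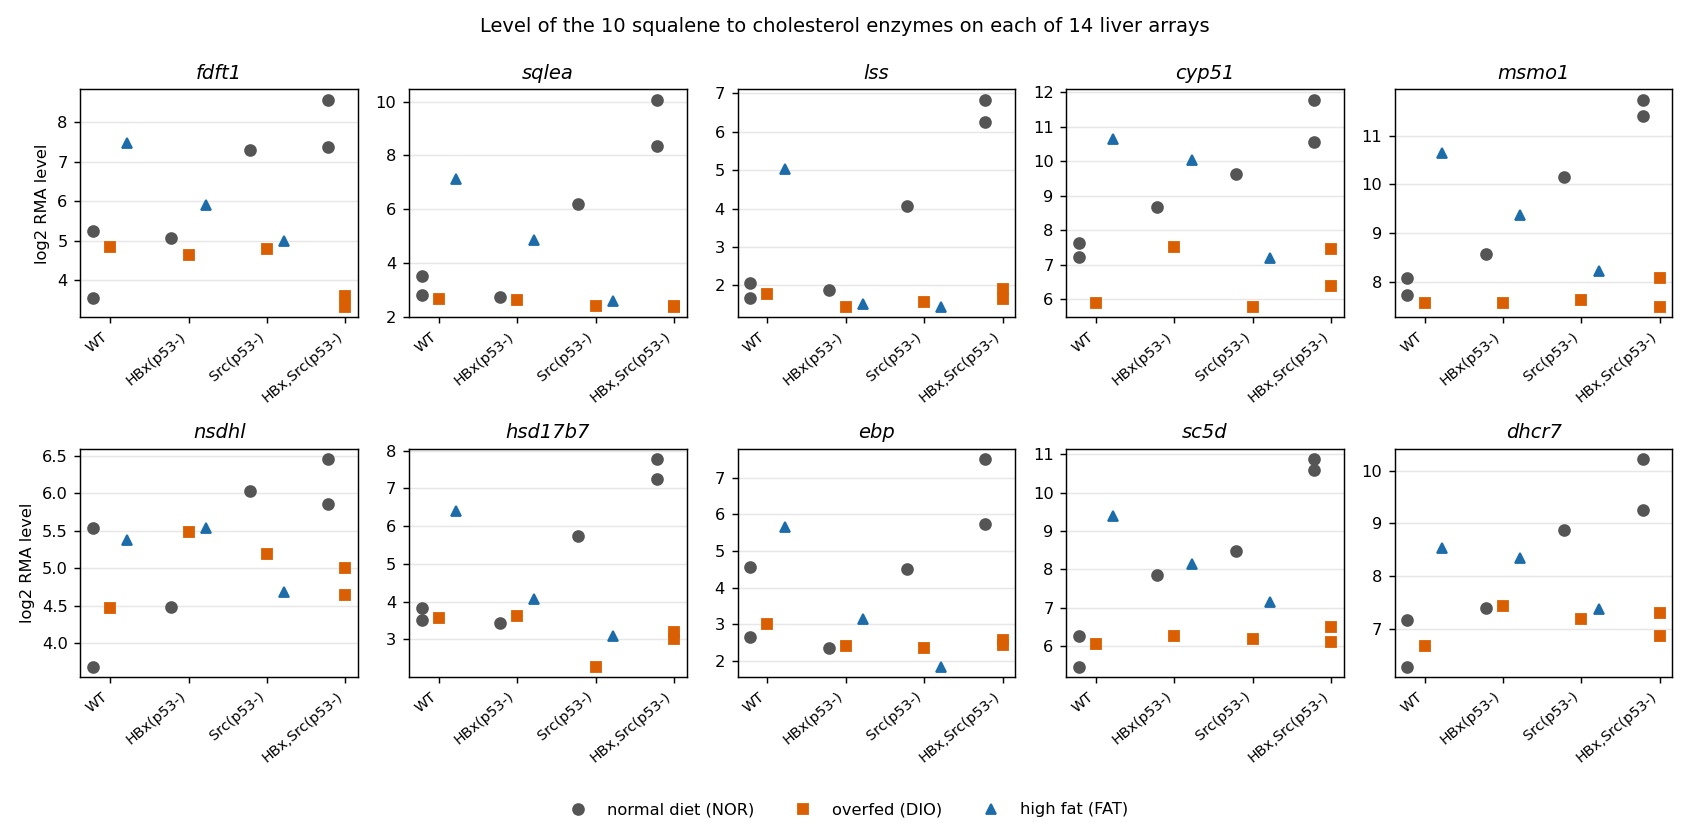
Log2 level of each of the 10 enzymes (vertical axis, log2 RMA level, a separate scale for each gene) by genotype (horizontal axis), with 1 point per array and the diet shown by colour and shape. In fdft1, for example, the HBx,Src(p53-) NOR points lie at 8.57 and 7.37 and the DIO points at 3.61 and 3.32.

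Squalene synthase, fdft1, joins a pair of farnesyl diphosphate molecules and is the entry to the sterol branch. Its log2 level was 3.55 and 5.25 on the WT NOR arrays, 4.85 on DIO and 7.48 on FAT, and in HBx(p53-) it was 5.06 on NOR, 4.65 on DIO and 5.91 on FAT. In Src(p53-) it was 7.30 on NOR, 4.80 on DIO and 5.00 on FAT, and in HBx,Src(p53-) it was 8.57 and 7.37 on NOR against 3.61 and 3.32 on DIO. The fish without Src were highest on high fat food and the fish with Src highest on the normal diet. Its SD between the WT NOR arrays was 1.20 (n = 2), against 0.85 on HBx,Src(p53-) NOR and 0.21 on DIO.

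Squalene epoxidase, sqlea, makes the epoxide that the next enzyme cyclises and is a known rate-limiting step of the branch. It varied over 7.71 log2 units, the widest range of the 10. WT arrays had log2 levels of 3.50 and 2.80 on NOR, 2.65 on DIO and 7.11 on FAT, and HBx(p53-) arrays had 2.73, 2.61 and 4.86 in the same order of diets. Src(p53-) arrays had 6.21 on NOR, 2.38 on DIO and 2.60 on FAT, and HBx,Src(p53-) arrays had 10.07 and 8.36 on NOR and 2.36 and 2.38 on DIO. On all 5 DIO arrays and on the Src(p53-) FAT array it lay between 2.36 and 2.65, close to its lowest level. Its levels on 8 of the 14 arrays were at or below the median of all genes on the array, where RMA compresses differences.

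Lanosterol synthase, lss, closes squalene epoxide into the first sterol. Log2 levels in WT were 1.68 and 2.07 on NOR, 1.77 on DIO and 5.04 on FAT, whereas HBx(p53-) stayed at 1.87, 1.44 and 1.52 on NOR, DIO and FAT. They were 4.07 on NOR, 1.58 on DIO and 1.44 on FAT in Src(p53-), and 6.83 and 6.25 on NOR against 1.65 and 1.91 on DIO in HBx,Src(p53-). Only the NOR arrays of the Src-carrying lines and the WT FAT array stood above 2.07, and lss was the only member that was lower on the HBx(p53-) FAT array than on its NOR array. On 10 of the 14 arrays its level was at or below the array's median of all genes.

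The lanosterol demethylase cyp51 and the sterol methyl oxidase msmo1 remove methyl groups from lanosterol. For cyp51 the log2 level in WT was 7.22 and 7.63 on NOR, 5.90 on DIO and 10.66 on FAT, and in HBx(p53-) 8.68, 7.52 and 10.03. In Src(p53-) cyp51 was 9.62 on NOR, 5.77 on DIO and 7.19 on FAT, and in HBx,Src(p53-) 11.79 and 10.57 on NOR against 7.45 and 6.37 on DIO. In each genotype cyp51 was lowest on a DIO array, and it was the member with the largest difference of FAT over DIO in WT, HBx(p53-) and Src(p53-). For msmo1 the log2 levels were 7.72 and 8.08 on NOR, 7.57 on DIO and 10.64 on FAT in WT, 8.56, 7.57 and 9.38 in HBx(p53-), and 10.15, 7.63 and 8.22 in Src(p53-). The HBx,Src(p53-) arrays had msmo1 at 11.74 and 11.41 on NOR and 8.08 and 7.48 on DIO. The second msmo1 probe set followed the first with r = 0.97 over the 14 arrays, a description with no test.

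The dehydrogenase nsdhl and the ketoreductase hsd17b7 complete the removal of methyl groups. The nsdhl levels moved least, over 2.76 log2 units, and its WT NOR arrays, at 3.69 and 5.53, covered most of that range. WT had nsdhl at 4.47 on DIO and 5.37 on FAT, HBx(p53-) at 4.49, 5.48 and 5.53 on NOR, DIO and FAT, Src(p53-) at 6.03, 5.19 and 4.68, and HBx,Src(p53-) at 6.45 and 5.86 on NOR and 5.00 and 4.64 on DIO. Like the other members it was lower on DIO than on NOR in the Src-carrying lines, but its WT FAT array did not stand above the WT NOR arrays. By contrast hsd17b7 was 3.51 and 3.82 on NOR, 3.57 on DIO and 6.39 on FAT in WT, and 3.44, 3.63 and 4.08 in HBx(p53-). In the Src-carrying lines hsd17b7 was 5.73 on NOR, 2.28 on DIO and 3.08 on FAT for Src(p53-), and 7.77 and 7.25 on NOR against 3.19 and 3.01 on DIO for HBx,Src(p53-). The 2 arrays of each group lay close together for hsd17b7, with SDs of 0.37, 0.13 and 0.22 (n = 2 each) in the NOR and DIO groups of HBx,Src(p53-) and in WT on NOR.

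The last 3 members move, add and reduce double bonds of the ring, in that order. They are the isomerase ebp, the lathosterol desaturase sc5d, and dhcr7, which makes cholesterol from its immediate precursor in the Kandutsch-Russell branch. The ebp log2 levels were 2.66 and 4.57 on NOR, 3.01 on DIO and 5.66 on FAT in WT, 2.35, 2.40 and 3.15 in HBx(p53-), 4.50, 2.35 and 1.85 in Src(p53-), and 7.50 and 5.75 on NOR against 2.58 and 2.45 on DIO in HBx,Src(p53-). Its WT NOR arrays were 1.91 apart and those of HBx,Src(p53-) NOR 1.75, the widest gaps of any member within these groups. The sc5d levels were 5.47 and 6.28 on NOR, 6.06 on DIO and 9.38 on FAT in WT, 7.85, 6.27 and 8.14 in HBx(p53-), 8.48, 6.20 and 7.16 in Src(p53-), and 10.59 and 10.87 against 6.49 and 6.11 in HBx,Src(p53-). For dhcr7 they were 6.28 and 7.16 on NOR, 6.68 on DIO and 8.53 on FAT in WT, 7.39, 7.43 and 8.35 in HBx(p53-), 8.88, 7.19 and 7.37 in Src(p53-), and 9.25 and 10.22 against 7.30 and 6.87 in HBx,Src(p53-). Both sc5d and dhcr7 had their highest value on HBx,Src(p53-) NOR array 2, while the other 8 members had it on array 1. Second probe sets of dhcr7 and hsd17b7 followed the first with r = 0.80 and r = 0.77, that of hsd17b7 at a mean log2 level of 1.64. On the second dhcr7 probe set WT had 3.25 and 5.23 on NOR, 4.76 on DIO and 5.59 on FAT. Every array of the other lines was higher there, at 6.16 or more.

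The design asks what an obesity diet did in each genotype, and HBx,Src(p53-), with 2 NOR and 2 DIO arrays, gives the comparison with the most arrays. All 10 enzymes were lower in the overfed fish, by a median of 4.34 log2 units in size (-4.34, a 20.2-fold median ratio). The largest difference was that of sqlea, from 9.21 ± 1.21 to 2.37 ± 0.01 (SD, n = 2 each), a fitted log2 difference of -6.85 ± 1.25 (SE), or 115-fold. It was -4.77 ± 0.81 for lss, -4.51 ± 0.86 for fdft1, -4.43 ± 0.96 for sc5d and -4.41 ± 0.73 for hsd17b7. The smallest differences were those of dhcr7, at -2.65 ± 0.61, and nsdhl, at -1.33 ± 0.55. Both NOR arrays were above both DIO arrays for 10 of 10 members, by 0.85 to 5.98 log2 units between the nearest arrays. Of all genes 24.7% were separated in that way.

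In limma's moderated test over all 21125 genes, 0 of the 10 members passed an adjusted p of 0.05 in HBx,Src(p53-), where 0.0142% of all genes were called. Adjusted p was 0.121 for lss and hsd17b7, 0.146 for sqlea and up to 0.43 for nsdhl. At an unadjusted p under 0.05 with a fold of at least 2, 10 of 10 members were lower against 3.92% of all genes. The study's methods give a fold of 2 with p under 0.05 for 1 array analysis, without naming an adjustment. For the gene lists behind its pathway analysis they give a fold of 2 alone. Leaving out the WT DIO or the WT FAT array left the differences as they were, with lss at -4.77, hsd17b7 at -4.41 and sqlea at -6.85. Some members were then called, and these calls are counted at the end, beside the range over all genes. The 2 WT arrays form 1 cell of the model, and their distance enters the residual spread that every comparison uses. With a separate mean for each of the 11 groups, which splits these 2 arrays, the median was -4.34. No member was called in that limma fit, where the lowest adjusted p among them was 0.0501, just above the threshold.

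**Figure D2:**
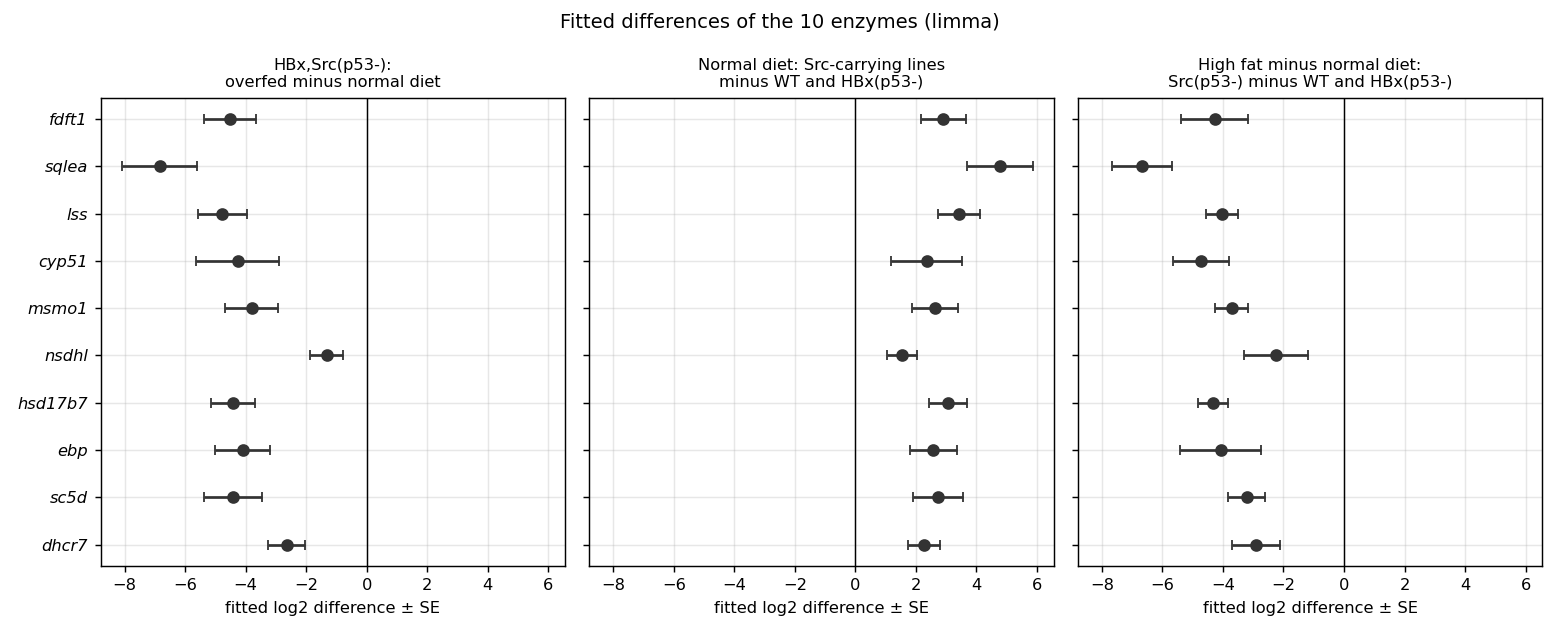
Fitted log2 difference of each enzyme (points) with its standard error from limma (bars) in 3 comparisons, on 1 shared horizontal axis. All 10 points are below 0 in the panel for overfeeding in HBx,Src(p53-). They are also below 0 in the panel for the difference of high fat changes, Src(p53-) minus WT and HBx(p53-). That panel does not show the high fat change itself. In the panel for Src-carrying lines on normal diet all 10 are above 0.

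Exocrine pancreas markers moved with the diet in these fish, with means of 6.32 and 6.76 on NOR and 7.71 and 7.06 on DIO, while hepatocyte markers were 12.17 and 12.12 against 11.90 and 11.96. With the pancreas mean as a covariate the median difference of the 10 enzymes was -4.74. Leukocyte markers (5.33 and 4.94 on NOR, 4.72 and 4.87 on DIO) and germ cell markers (4.02 and 2.29 on NOR, 3.88 and 3.10 on DIO) also varied, and their part in the result was not tested.

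Src(p53-) had 1 array per diet, and its 10 enzymes were lower on both obesity diets. Against the NOR array the DIO array was at least 2-fold lower for 9 of 10 members (5.51% of all genes), with a median of -2.49, from -0.83 for nsdhl to -3.85 for cyp51. The FAT array was at least 2-fold lower for 10 of 10 (5.13% of all genes), with a median of -2.36, from -1.32 for sc5d to -3.62 for sqlea. With the 2 obesity diet arrays pooled, 0 members were called by limma, as were 0% of all genes, and 4 met a fold of 2 with an unadjusted p under 0.05 (1.87% of all genes were lower by that rule). These were hsd17b7 at -3.04 ± 0.89 (adjusted p = 0.887), lss at -2.56 ± 0.99 (0.952), and sqlea at -3.72 ± 1.54 and fdft1 at -2.40 ± 1.05 (both 0.974). Exocrine pancreas markers had means of 4.70 on the NOR array, 6.33 on DIO and 5.83 on FAT, and with them as a covariate the median was -2.91. Over both Src-carrying lines, the 3 NOR arrays lay above the 4 obesity diet arrays for 10 of 10 members, a separation that 5.21% of all genes had.

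On the WT and HBx(p53-) arrays the 2 obesity diets went with different levels, with only 1 array per obesity diet in each line. The 10 enzymes varied together, so their number does not stand in for more fish. In WT the DIO array differed from the NOR mean by a median of -0.12, with 8 members lower and 2 higher, and 1 member, cyp51, at least 2-fold lower (3.3% of all genes). The WT FAT array was above the NOR mean for 10 of 10 members and at least 2-fold above it for 9 (6.21% of all genes), with a median of 2.91. The exception was nsdhl, at 0.76, and the largest values were those of sqlea at 3.96, sc5d at 3.50, cyp51 at 3.24, lss at 3.16 and fdft1 at 3.09. In HBx(p53-) the FAT array was above NOR for 9 of 10 members and at least 2-fold above it for 3 (4.1% of all genes), sqlea at 2.12, cyp51 at 1.35 and nsdhl at 1.04, with a median of 0.84. The HBx(p53-) DIO array had a median of -0.27, with 2 members, sc5d at -1.58 and cyp51 at -1.16, at least 2-fold lower (3.99% of all genes) and nsdhl at 0.99.

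**Figure D3:**
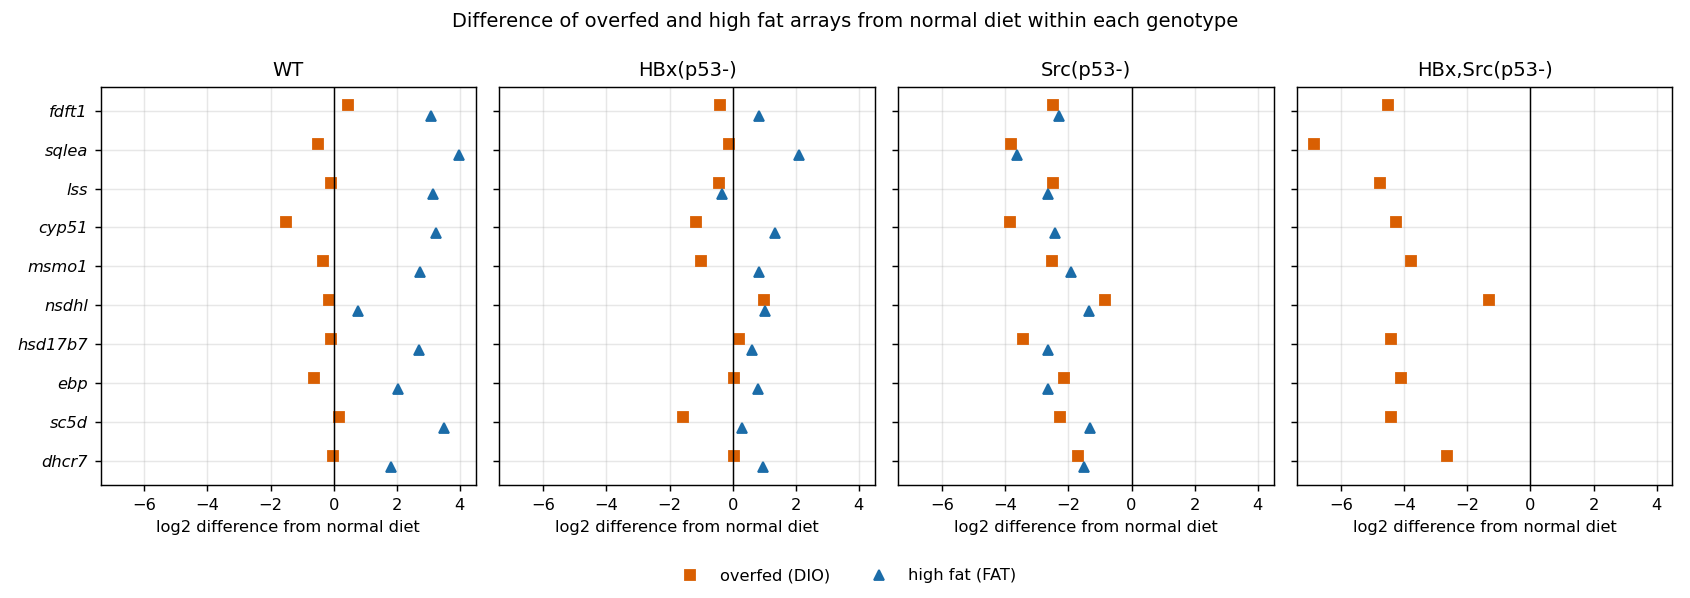
Log2 difference of the overfed (squares) and high fat (triangles) arrays from the mean of the normal diet arrays of the same genotype, for each enzyme. High fat points lie to the right of 0 in WT (median 2.91) and to the left in Src(p53-) (median -2.36). HBx,Src(p53-) has no high fat array.

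The 2 FAT arrays of WT and HBx(p53-) were above the 2 DIO arrays of these lines for 8 of 10 members, all but lss and nsdhl (20.6% of all genes), and above all 3 NOR arrays for 7 of 10 (10.7%). Pooling both obesity diets in WT gave a median of 1.26 with 0 members called and 0 at an unadjusted p under 0.05 (0% and, for higher genes at a fold of 2, 1.19% of all genes), and this value rests on the high fat array. Without it the median was -0.12, and without the overfed array it was 2.91, with lss at 3.16. In HBx(p53-) the pooled median was 0.32, again with 0 members called and 0 at an unadjusted p under 0.05 (0% of all genes called, and 0.918% higher at a fold of 2 with that p).

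Whether the diet changes differed between lines with and without Src was asked in the same model. The difference of diet changes, Src-carrying lines minus WT and HBx(p53-), was negative for 10 of 10 members, with a median of -4.00. It was -6.65 ± 1.40 for sqlea, -4.59 ± 0.82 for hsd17b7 and -4.45 ± 0.96 for fdft1, and -1.88 ± 0.62 for nsdhl. No member was called by limma (0% of all genes), adjusted p ran from 0.452 to 0.556, and 10 of 10 had an unadjusted p under 0.05 with a fold of 2 (3.11% of all genes were lower by that rule). With overfed arrays alone as the obesity diet the median was -2.78. The obesity diet holds high fat arrays in 3 genotypes and none in HBx,Src(p53-), so feeding method and genotype are mixed in this value. Both Src-carrying lines are p53 mutants, as is HBx(p53-), but WT is not. The p53 mutation is thus partly mixed with Src here and in the other comparisons of these lines with WT and HBx(p53-).

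For the high fat diet alone, the difference Src(p53-) minus WT and HBx(p53-) could be fitted with a separate mean for each of the 11 groups. This comparison was added after the values above were seen. It was negative for 10 of 10 members, with a median of -4.06: hsd17b7 was -4.32 ± 0.50, lss -4.04 ± 0.53, msmo1 -3.71 ± 0.54 and sqlea -6.66 ± 0.99. In limma 0 members were called (0% of all genes), with adjusted p from 0.464 to 0.95, and 9 of 10 had an unadjusted p under 0.05 with a fold of 2, all but nsdhl (3.18% of all genes). Each FAT group is 1 array, and so are the NOR groups of HBx(p53-) and Src(p53-). The model has 3 residual degrees of freedom, all from the 3 groups with 2 arrays. In WT NOR and HBx,Src(p53-) DIO lss was near its floor, with SDs of 0.28 and 0.18 (n = 2 each). Its standard error may therefore be too small, which was not tested.

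Under normal diet the question was how the lines differ before any obesity diet. All 10 enzymes were higher in the Src-carrying lines than in WT and HBx(p53-), by a median of 2.69. This difference, too, holds part of the p53 mutation, which WT lacks. The difference was 4.77 ± 1.09 for sqlea, 3.43 ± 0.70 for lss, 3.06 ± 0.63 for hsd17b7, 2.91 ± 0.75 for fdft1 and 1.54 ± 0.48 for nsdhl. The 3 NOR arrays of the Src-carrying lines were above the 3 of the other lines for 9 of 10 members, all but ebp, whose WT NOR array 2 at 4.57 lay above the Src(p53-) NOR array at 4.50 (7.26% of all genes were separated). In limma's test 0 members were called, where 0.00473% of all genes were, and 9 of 10, all but cyp51, met a fold of 2 with an unadjusted p under 0.05 (2.69% of all genes were higher by that rule). Adjusted p was 0.368 for lss and 0.643 for cyp51. With a separate mean for each of the 11 groups no member was called either. Leaving out the WT DIO or WT FAT array left lss at 3.43 and hsd17b7 at 3.06. Calls made then are counted at the end, beside the range over all genes. Leukocyte markers were also higher in the Src-carrying lines on this diet, with means of 4.46 in Src(p53-) and 5.33 and 4.94 in HBx,Src(p53-) against 3.60 and 3.76 in WT and 4.18 in HBx(p53-), with no overlap. Their part in the result was not tested. With the pancreas markers as a covariate the median was 3.13.

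Against WT alone, HBx,Src(p53-) had a median difference of 3.71 on the normal diet, from 1.54 ± 0.55 for nsdhl to 6.06 ± 1.25 for sqlea, with sc5d at 4.86 ± 0.96 and lss at 4.67 ± 0.81. All 10 met a fold of 2 with an unadjusted p under 0.05 (4.14% of all genes were higher by that rule), and 0 were called by limma, with adjusted p from 0.142 to 0.491 (0.00947% of all genes called). Leaving out the WT DIO or WT FAT array left lss at 4.67 and hsd17b7 at 3.84, and calls made then are likewise counted at the end. This comparison shares the HBx,Src(p53-) NOR arrays with the overfeeding comparison above. Exocrine pancreas markers were higher in HBx,Src(p53-) NOR (6.32 and 6.76) than in WT NOR (5.41 and 4.37), and with them as a covariate the median was 2.87. Leukocyte markers (5.33 and 4.94 against 3.60 and 3.76) were higher as well, and their part was not tested.

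On the obesity diets the lines differed less. The Src-carrying lines were lower than WT and HBx(p53-) for 10 of 10 members, with a median of -1.11, 0 called by limma (0% of all genes) and 2 at a fold of 2 with an unadjusted p under 0.05 (0.625% of all genes were lower), fdft1 at -1.54 ± 0.61 (adjusted p = 0.49) and hsd17b7 at -1.53 ± 0.52 (0.442). With overfed arrays alone the median was -0.11. Among DIO arrays, the 3 of the Src-carrying lines were below the 2 others for 2 of 10 members, sqlea and hsd17b7 (11.8% of all genes).

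Averaged over genotypes, overfeeding and high fat feeding went with different levels. Overfed arrays were lower than normal diet arrays for 10 of 10 members, with a median of -2.13, led by sqlea at -3.30 ± 1.14 and cyp51 at -2.82 ± 0.70, and 9 of 10 met a fold of 2 with an unadjusted p under 0.05 (0.516% of all genes were lower by that rule). High fat arrays were above overfed arrays for 10 of 10, with a median of 2.14, and 5 met that rule (1.24% of all genes): cyp51 at 3.38 ± 0.88, sqlea at 3.49 ± 1.44, sc5d at 2.78 ± 0.91, msmo1 at 2.40 ± 0.78 and dhcr7 at 1.44 ± 0.64. Between high fat and normal diet the median was 0.18, with 6 members higher, 4 lower and 0 at an unadjusted p under 0.05 (0.521% of all genes were higher by that rule). In these 3 comparisons 0 members and 0% of all genes were called by limma. These averages covered lines that differed: overfed against normal diet had a median of -0.28 in WT and HBx(p53-) and -3.43 in the Src-carrying lines, and high fat against normal diet 1.73 and, in Src(p53-), -2.36. High fat against overfed had a median of 1.83 in WT and HBx(p53-) and 0.21 in Src(p53-), where lss (-0.15), nsdhl (-0.52) and ebp (-0.50) were lower on high fat, and the average over genotypes was 1.01 without the WT FAT array.

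Over the 14 arrays the members followed one another. The 45 pairwise correlations ran from 0.67, for lss and nsdhl, to 0.98, for msmo1 and sc5d, with a median of 0.89. Each member's correlation with the mean of the other 9 was 0.75 for nsdhl and 0.91 to 0.99 for the rest, with msmo1 highest. These are descriptions over arrays that share groups and 1 normalization, and they carry no test. Between the 2 arrays of a group the members also moved together: 8 of 10 were higher on HBx,Src(p53-) NOR array 1 than on array 2, and 1 of 10 on WT NOR array 1. The differences within HBx,Src(p53-) NOR had a median of 0.78 and exceeded 2-fold for 4 members, against 14.2% of all genes.

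Other genes of sterol metabolism were read from 5 lists. Of the 4 other sterol step genes, erg28, which tethers enzymes of the branch in yeast, and tm7sf2, a sterol reductase, were lower in overfed HBx,Src(p53-) by -2.49 ± 0.62 (adjusted p = 0.239) and -2.75 ± 0.72 (0.246). Over the 4 the median was -1.33, with 3 lower, and only 2 met a fold of 2 with an unadjusted p under 0.05. The paralog sqleb was 0.36 ± 0.23 in the same comparison. Its log2 level stayed between 1.15 and 1.80 on all 14 arrays, where sqlea went from 2.36 to 10.07. Of 10 mevalonate genes 9 were lower in that comparison, with a median of -2.50 and 6 at a fold of 2 with an unadjusted p under 0.05. The synthase hmgcs1 was -5.80 ± 0.88 (0.121), the decarboxylase mvda -5.18 ± 0.82 (0.121) and farnesyl diphosphate synthase fdps -4.15 ± 0.80 (0.164). On the WT FAT array the mevalonate genes had a median of 0.54 over NOR, with 2 of 10 at least 2-fold higher, where the 10 sterol enzymes had 2.91 and 9. The 2 lists were not tested against each other.

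The mevalonate gene hmgcra, which encodes HMG-CoA reductase, differed from the sterol enzymes on the Src(p53-) FAT array but not on the DIO array. Its log2 level was 9.78 on NOR, 5.64 on DIO and 10.39 on FAT in that line, whereas all 10 sterol enzymes were lower on FAT than on NOR. Of the 10 mevalonate genes 3, hmgcra among them, were higher on that FAT array than on NOR, with a median of -1.14 over the list. In HBx,Src(p53-) hmgcra was 11.80 and 11.12 on NOR and 7.09 and 4.98 on DIO, lower with overfeeding as the 10 enzymes were. This gene was singled out after its values were seen.

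**Figure D4:**
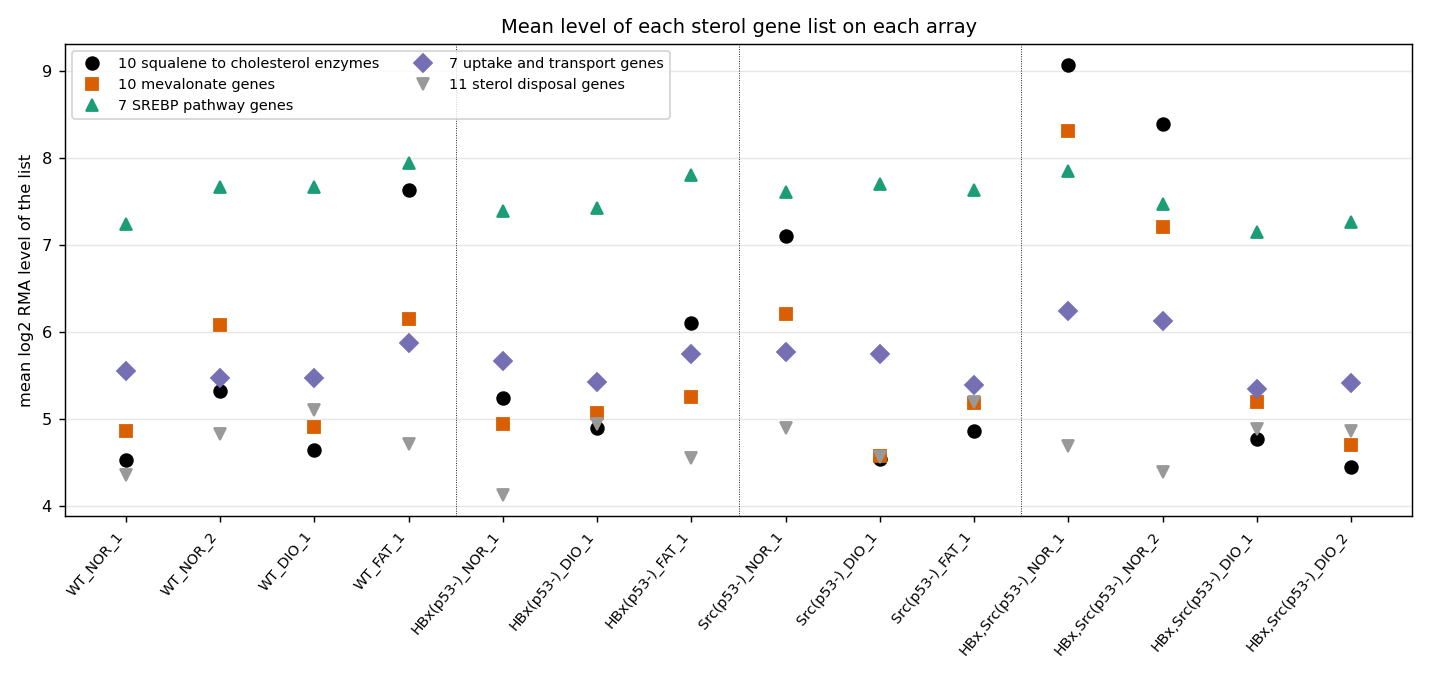
Mean log2 RMA level (vertical axis) of the 10 enzymes and of 4 other sterol gene lists on each of the 14 arrays (horizontal axis), with dotted lines between genotypes. The 10 enzymes run from 4.45 to 9.06 and the SREBP pathway genes from 7.15 to 7.94.

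Of the 7 SREBP pathway genes, srebf2, which encodes SREBP2, had log2 levels of 8.46 and 8.79 on HBx,Src(p53-) NOR and 6.38 and 6.31 on DIO, a difference of -2.28 ± 0.43 (adjusted p = 0.153). It was 8.16 on NOR, 7.04 on DIO and 8.14 on FAT in Src(p53-), and 7.38, 7.57, 7.85 and 8.27 on the WT NOR, DIO and FAT arrays in turn. Over the 14 arrays its correlation with the mean of the 10 enzymes was 0.73, given as a description, while scap was at 0.18, insig1 at 0.32 and mbtps1, a protease that cleaves SREBPs, at -0.55. In overfed HBx,Src(p53-), mbtps1 was 0.95 ± 0.33 (adjusted p = 0.351) and scap, the sterol sensor that escorts SREBPs, -0.76 ± 0.45 (0.601). None of the 7 was called.

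Of 7 uptake and transport genes, 5 were lower in overfed HBx,Src(p53-), with a median of -1.20 and 4 at a fold of 2 with an unadjusted p under 0.05. They included npc1, which moves cholesterol out of lysosomes, at -1.45 ± 0.34 (adjusted p = 0.217), tmem97, a binding partner of NPC1 in human cells, at -1.87 ± 0.57 (0.292) and the LDL receptor paralog ldlrb at -1.72 ± 0.55 (0.32). The 11 disposal genes, most of which export, store or oxidise sterols, had a median of 0.17 and 0 at that rule in either direction. Among them cyp7a1, the rate-limiting enzyme of bile acid synthesis, was 5.26 and 1.86 on HBx,Src(p53-) NOR and 6.69 and 5.11 on DIO, 2.34 ± 1.42 (0.621), and the sterol exporter abca1b was 1.39 ± 0.81 (0.603). No list gene was called in this comparison.

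On normal diet the median difference of the Src-carrying lines from WT and HBx(p53-) was 1.92 for the mevalonate genes, 0.33 for the 4 other sterol step genes, 0.52 for uptake and transport, 0.28 for disposal and 0.15 for the SREBP pathway, beside 2.69 for the 10 enzymes. These lists were not tested against one another. In Src-carrying lines idi1, the isomerase ahead of farnesyl diphosphate, was 1.72 ± 0.36 higher (adjusted p = 0.383), erg28 2.14 ± 0.54 (0.417), tmem97 1.64 ± 0.49 (0.462) and srebf2 0.78 ± 0.37 (0.614). Between high fat and overfed arrays, hmgcra was 3.39 ± 0.97 higher on high fat (0.675), srebf2 1.28 ± 0.44 (0.708), tm7sf2 1.69 ± 0.56 (0.687) and the sterol carrier stard4 0.91 ± 0.40 (0.74).

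The genes outside the 10 whose level over the 14 arrays was most like the mean of the 10 were found by Pearson correlation over 21125 genes. They were zgc:158417 (r = 0.94), phc1, a Polycomb protein (0.93), zgc:103508 (0.90), hmgcs1 (0.89), rdh12, a retinol dehydrogenase (0.88), mvda, dhrs7b, idi1 and aifm2 (0.87 each) and si:ch211-156j16.1 (0.86). Of these 10, 3 are mevalonate genes of the list. The range of phc1 was 1.57 and that of dhrs7b 1.55 log2 units, against 2.76 to 7.71 for the 10 enzymes, while hmgcs1 ranged over 6.87. Such correlations over 14 arrays rest on the same few arrays where the mean of the 10 was high, and they carry no test.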

How the data were processed

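Liver RNA was hybridised to 14 arrays in 11 groups taken from the labels. Per the labels and the study's methods, the deposited values were log2 levels per probe set, which the authors computed by robust multi-array averaging (RMA, oligo package), that is, background correction, quantile normalization and median polish; versions, array scan dates and the genome build behind the probe sets are not given in the sources used here. RMA hides a change in total RNA and compresses dim probe sets. Every value column was assigned to a sample. Of 75212 probe sets, 30358 carried 1 symbol in the platform annotation, 1015 several and 43839 none. They gave 21125 genes, each read from its brightest probe set, with no filter on low values. For 19501 genes the symbol was matched to RefSeq through Entrez identifiers.

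The fits used limma 3.58.1 in R 4.3.3 on all arrays: 8 cell means of genotype by normal or obesity diet (6 residual degrees of freedom), an additive model of genotype and feeding (8), and 11 group means (3). Groups of 1 array were taken to vary as the others do. A call needed a p under 0.05 after Benjamini-Hochberg adjustment over the 21125 genes. Errors after ± are standard errors unless SD is stated. The fits were tested on simulated data. Alternatives were other probe set summaries, filters, eBayes options, array weights, centring and a pancreas covariate. Further ones were 11 group means in place of 8, overfed arrays alone, a replicate block and each array left out. Named were all 10 members, up to 3 genes per list and comparison by the size of the moderated statistic, and the 10 genes most like the members. The members and lists were chosen with earlier results of these data known. Of the lists, mvdb, ldlra, npc2, npc1l1, soat2, abca1a, cyp8b1, cyp27a1 and some further genes are not reported here.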

Additional observations from a re-analysis of the deposited data

Results flagged for a closer look

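For 8 of the 10 members the high fat arrays of WT and HBx(p53-) were above every normal diet array of the same line, while the Src(p53-) high fat array was below its normal diet array. The difference of the high fat changes, Src(p53-) minus the mean of WT and HBx(p53-), was -4.27 for fdft1, -6.66 for sqlea, -4.73 for cyp51, -3.71 for msmo1, -4.32 for hsd17b7, -4.07 for ebp, -3.22 for sc5d and -2.90 for dhcr7. The opposite movement is an observation on 1 high fat array per line, and HBx(p53-) and Src(p53-) had 1 normal diet array each as well. The same Src(p53-) normal diet array serves the overfeeding difference of that line and the normal diet comparison, so these are not separate observations. The limma test of the difference called none of these 8, and lss and nsdhl did not move that way in all 3 lines. The 8 were picked for showing this pattern, and the share of all genes that show it was not computed. No group had the 4 arrays needed to look for an array far from the others.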

How the results depend on the processing

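Between 0 and 3 members were called under the alternatives with an adjusted p. Every such call came from leaving out the WT overfed or the WT high fat array: members called ranged from 0 to 1 for the WT diet change, 0 to 3 in HBx,Src(p53-), and 0 to 2 for the difference of diet changes and for both normal diet comparisons, and stayed at 0 in the others. At a fold of 2 with an unadjusted p under 0.05 the count was 4 in Src(p53-), 10 in HBx,Src(p53-), 10 for the difference, 9 and 10 on normal diet (Src-carrying lines, and HBx,Src(p53-) against WT), 2 on obesity diet, 9 overfed, 5 for high fat against overfed and 9 for the high fat difference. With each array left out, the members' median diet change ran from -0.12 to 2.91 in WT, from -0.27 to 0.84 for HBx(p53-), from -2.49 to -2.36 for Src(p53-) and from -4.78 to -3.78 for HBx,Src(p53-). It ran from -4.80 to -3.07 for the difference, 2.51 to 3.00 and 3.50 to 4.14 on normal diet, -1.85 to -0.38 on obesity diet, -2.52 to -1.77 overfed against normal, -0.91 to 1.04 high fat against normal (negative without the WT high fat array), 1.01 to 3.15 high fat against overfed and -4.27 to -3.73 for the high fat difference. The number of all genes called ranged from 0 to 14 in WT, 0 to 1 in HBx(p53-), 0 to 24 in HBx,Src(p53-), 0 to 2 for the difference, 0 to 5 and 0 to 41 on normal diet, 0 to 7 on obesity diet and 0 to 1 in both high fat comparisons.

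With 11 group means the medians were -4.34 in HBx,Src(p53-), 2.69 for Src-carrying lines on normal diet and -4.00 for the difference. No member was called in these by limma, with a lowest adjusted p of 0.0501 in HBx,Src(p53-). With overfed arrays alone the medians were -0.12 in WT, -0.27 in HBx(p53-), -2.78 for the difference and -0.11 on obesity diet. In WT, with overfed arrays alone or without the high fat array, sqlea turned to -0.50, lss to -0.10, cyp51 to -1.52, msmo1 to -0.33, nsdhl to -0.14, hsd17b7 to -0.09, ebp to -0.61 and dhcr7 to -0.03, because the high fat array is then not in the obesity diet; without WT normal diet array 1 nsdhl turned to -0.61 and ebp to -0.24. The highest values with an array left out were 3.96 for sqlea, 3.16 for lss, 3.24 for cyp51, 2.74 for msmo1, 2.72 for hsd17b7, 2.05 for ebp and 1.81 for dhcr7 (without the WT overfed array), and 1.23 for nsdhl (without WT normal diet array 2). On obesity diet with overfed arrays alone, lss turned to 0.08, msmo1 to 0.13, nsdhl to 0.03, sc5d to 0.09 and dhcr7 to 0.08, and lss to 0.02 without the WT high fat array (-1.62 without the WT overfed array). The pancreas covariate gave -2.91 in Src(p53-), -4.45 for the difference, 3.13 and 2.87 on normal diet, 1.02 for high fat against normal and 2.79 for high fat against overfed; the cause was not tested. Group means within lines, chosen after seeing the data, gave -0.28 (WT and HBx(p53-)) and -3.43 (Src-carrying) for overfed against normal, 1.73 (WT and HBx(p53-)) and -2.36 (Src(p53-)) for high fat against normal, and 0.21 (Src(p53-)) for high fat against overfed. There fdft1 turned to 0.02, nsdhl to 0.42, hsd17b7 to 0.05 and dhcr7 to 0.01 for overfeeding in WT and HBx(p53-), and lss to -0.15, nsdhl to -0.52 and ebp to -0.50 for high fat against overfed in Src(p53-).

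With the array number as a replicate block, the median was -4.34 for overfeeding in HBx,Src(p53-) (lowest adjusted p 0.183) and 3.71 against WT (0.19), with 0 members called. Nothing in the labels says that equal numbers mark shared fish or days, and deviations correlated at 0.13 between the HBx,Src(p53-) groups, -0.03 between HBx,Src(p53-) NOR and WT NOR, and -0.23 between HBx,Src(p53-) DIO and WT NOR; with 2 arrays a group this settles no pairing. The number of arrays limits precision. On most arrays lss, sqlea and ebp were near the floor, where log2 differences are understated and the spread between arrays is compressed too. Standard errors and p-values of these genes may therefore be too small, which was not tested.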
